A study of Mus musculus with 8 samples.

Results

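The family described here comprises the receptors of mouse immunoglobulin G (IgG) and the proteins that carry their signal into the cell. It was defined by 8 gene symbols, the activating receptors Fcgr1, Fcgr3 and Fcgr4, the inhibitory receptor Fcgr2b, the adaptors Fcer1g and Tyrobp, the kinase Syk and the neonatal Fc receptor Fcgrt. A gene was represented by the rows of the array whose annotation gives exactly 1 symbol equal to its name, and 7 of the 8 were found in this way, each with 1 transcript cluster, among 19938 genes measured. The clusters are 10500335 (Fcgr1), 10360040 (Fcgr3), 10351509 (Fcgr4), 10360028 (Fcgr2b), 10360070 (Fcer1g), 10551883 (Tyrobp) and 10405216 (Syk). Fcgrt has no such row and was not analysed here. The samples came from primary mammary tumors, each under 1.0 cm in diameter, of FvB mice with the MMTV-Neu genotype, in which the MMTV promoter drives the Neu oncogene in mammary epithelium. Each tumor was sorted into a fraction enriched for tumor-initiating cells (TIC, 4 arrays) and a CD24- fraction that the submitters call non-tumor-initiating (4 arrays). All 8 samples share strain, genotype and tissue, and the labels used here state neither the animals' ages nor the gate of the TIC sort. Tumors N251, N260 and N283 gave a pair of arrays each, while the cells of N222 and N229 were combined in equal amounts to make 1 further pair (the pool below). The growth protocol numbers the first 2 of these tumors differently from the sample titles, and the titles were followed.

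Values are log2 intensities, so a difference of 1 is a 2-fold change, and every difference below is the TIC minus the CD24- fraction. The lower quartile of all 35556 rows was 5.82 to 5.87 in the TIC arrays and 5.83 to 5.94 in the CD24- arrays, which marks the level at which a transcript is dim. Epcam, an epithelial surface protein, was bright in every array, from 11.99 to 12.19 in TIC arrays, against 11.06 to 11.99 in CD24- arrays. The fraction labelled CD24- thus carried epithelial RNA in all 4 tumors, together with RNA of leukocytes. The CD24- array of N251 had the lowest Epcam level. Precision is limited by the 4 arrays of each group.

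Fc receptors bind the constant region of antibodies and let a cell respond to antibody-coated particles. Fcgr1, Fcgr3 and Fcgr4 have no long signalling tail of their own and work with Fcer1g, the common gamma chain, whose immunoreceptor tyrosine-based activation motif (ITAM) is phosphorylated when the receptors cluster. Syk docks on the phosphorylated ITAM and starts phagocytosis and cytokine release. Tyrobp, also called DAP12, is a second ITAM adaptor that serves receptors such as Trem2. Fcgr2b carries an inhibitory motif (ITIM) and recruits the phosphatase Inpp5d, which opposes the activating signal. Macrophages, neutrophils, dendritic cells, natural killer (NK) cells, mast cells and B cells carry different sets of these receptors. Syk is also known from epithelial cells of the human breast.

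The sequences before the start sites of the IgG receptors and of their adaptor Fcer1g are shown because these genes moved together between the fractions. They are the 250 bases before the annotated start, 5′ to 3′ on the gene's strand, from RefSeq (GRCm38.p6). Such a sequence was found for 7 of the 8 members, and Tyrobp was not among them. Capitals mark matches on either strand to GAGGAA, a core bound by Ets factors such as PU.1, to TTCNNNGAA, a pattern bound by STAT factors, and to a repeat of TTTC after any 2 bases (TTTC, NN, TTTC), a pattern bound by interferon regulatory factors.
Fcgr1 (chr3:96293970-96294219, minus strand): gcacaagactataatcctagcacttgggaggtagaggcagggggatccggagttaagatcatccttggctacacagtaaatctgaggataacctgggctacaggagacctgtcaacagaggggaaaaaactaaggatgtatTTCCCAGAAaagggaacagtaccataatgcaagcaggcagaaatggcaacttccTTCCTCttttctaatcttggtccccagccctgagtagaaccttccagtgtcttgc
Fcgr3 (chr1:171059404-171059653, minus strand): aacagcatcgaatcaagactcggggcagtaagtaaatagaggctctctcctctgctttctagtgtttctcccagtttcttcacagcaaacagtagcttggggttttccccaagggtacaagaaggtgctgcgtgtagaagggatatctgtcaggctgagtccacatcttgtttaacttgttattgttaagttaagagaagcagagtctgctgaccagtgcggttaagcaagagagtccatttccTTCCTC
Fcgr4 (chr1:171018676-171018925, plus strand): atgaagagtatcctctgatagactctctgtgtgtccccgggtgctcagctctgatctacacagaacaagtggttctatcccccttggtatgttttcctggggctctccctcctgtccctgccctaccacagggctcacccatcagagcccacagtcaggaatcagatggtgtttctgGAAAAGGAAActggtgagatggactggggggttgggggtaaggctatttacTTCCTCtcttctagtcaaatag
Fcgr2b (chr1:170976072-170976321, minus strand): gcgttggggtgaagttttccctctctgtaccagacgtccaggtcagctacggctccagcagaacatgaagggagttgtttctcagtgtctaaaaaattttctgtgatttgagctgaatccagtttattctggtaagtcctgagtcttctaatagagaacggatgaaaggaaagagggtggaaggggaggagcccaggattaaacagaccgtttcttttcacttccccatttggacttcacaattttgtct
Fcer1g (chr1:171234350-171234599, minus strand): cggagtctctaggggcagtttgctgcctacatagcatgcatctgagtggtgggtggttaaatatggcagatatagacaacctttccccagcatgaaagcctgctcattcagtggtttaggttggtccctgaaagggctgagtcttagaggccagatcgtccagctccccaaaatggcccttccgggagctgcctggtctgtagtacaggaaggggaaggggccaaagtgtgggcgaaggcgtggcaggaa

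GAGGAA was found before the starts of 4 of the 7 members with such a sequence, counted per gene. Counted per window, 23.3% of all 32851 windows of this length hold it. A member with 2 windows had more chances of a match. In Fcgr3 the match ended 1 base before the start used here, in Fcgr4 17 bases and in Fcgr1 50 bases before it, each on the reverse strand (TTCCTC as printed). Fcgr3 has 2 annotated starts with overlapping windows, of which the first is shown. Syk also has 2, and the second window held GAGGAA 4 to 9 bases before its start while the first held no match. Fcgr1 alone among the members held TTCNNNGAA, as TTCCCAGAA 101 to 109 bases before the start, against 7.02% of windows, and Fcgr4 alone held the TTTC repeat, on the reverse strand 64 to 73 bases before the start, against 2.98%. In the windows of Fcgr2b, Fcer1g and Fcgrt none of the 3 patterns was found. The patterns do not overlap one another in these windows, they were chosen with the results known, and a match describes letters only.

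All 7 measured members were lower in TIC cells than in CD24- cells of each tumor, and 6 of the 7 fell by the test across all genes (limma, Benjamini-Hochberg adjusted p under 0.05). Over all genes, 0.742% were called lower and 0.0502% higher, 0.792% in either direction. Of the 7 members 5 were both called and at least 4-fold lower, against 0.692% of all genes. The TIC arrays lay below all CD24- arrays for all 7 members, as for 4.68% of all genes (5.19% had them above), and 11.8% of genes were lower and 23.2% higher in all 4 tumors. With the tumor as a replicate block 6 members were again lower, against 1.09% of all genes lower and 0.863% higher. In that limma fit the adjusted p was 0.0189 for Fcer1g and Tyrobp and 0.0253 for Fcgr1. For Fcgr3, Fcgr2b and Fcgr4 it was 0.0290, 0.0410 and 0.0413. In the random block fit all 7 were lower, against 3.04% of all genes. Below, an SE or adjusted p of a gene is from the fit without a block unless stated. The median difference of the 7 members was -2.87, against 0.04 over all genes. At an unadjusted p under 0.05 all 7 were lower and 0 higher, against 1244 lower and 1600 higher of all 19938 genes. Fewer cells of a type and less RNA per cell cannot be told apart in such samples.

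**Figure D1:**
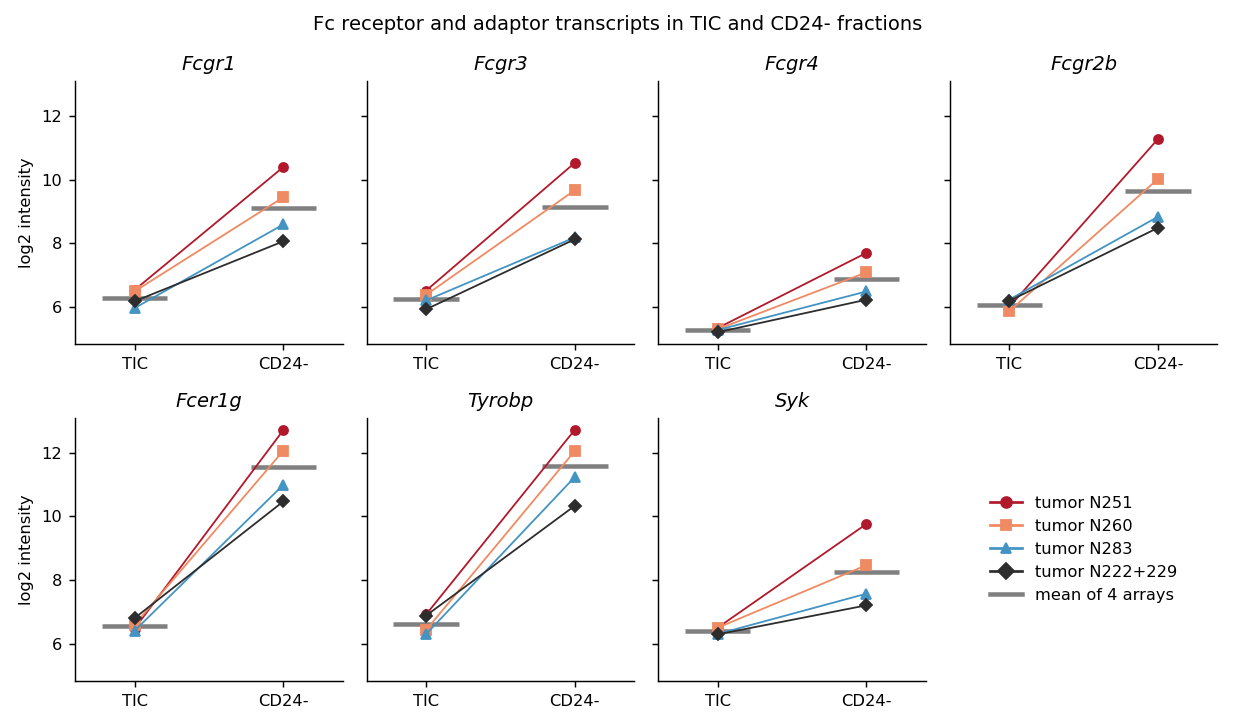
Log2 intensity of each measured member in the TIC (left) and CD24- (right) fraction, with a line for each tumor or pool and a grey bar for the mean of 4 arrays. In every panel the 4 TIC arrays lie close together and below all 4 CD24- arrays, which spread out with N251 highest and the pool of N222 and N229 lowest.

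The activating receptors fell in the TIC fraction. Fcgr1, which binds single IgG molecules with high affinity, stood at 6.53, 6.49, 5.96 and 6.18 in the TIC arrays of N251, N260, N283 and the pool, against 10.40, 9.45, 8.59 and 8.06 in the CD24- arrays of the same tumors. The TIC values span 0.57 and the CD24- values 2.34 on the log2 scale, and the groups do not overlap. It averaged 6.29 ± 0.27 in TIC arrays, against 9.12 ± 1.02 in CD24- arrays (SD, n = 4 each), a difference of -2.83 ± 0.44 (SE) or 7.13-fold lower on average (limma adjusted p = 0.0232).

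Fcgr3, the mouse CD16, a low-affinity receptor of immune complexes, was at 6.51, 6.38, 6.20 and 5.92 in the TIC arrays, in the same tumor order, against 10.53, 9.67, 8.18 and 8.13 in the CD24- arrays. N283 and the pool were almost level in the CD24- fraction, well under N251 and N260. The difference was -2.87 ± 0.50 (limma adjusted p = 0.0384), from -4.02 in N251 to -1.98 in N283.

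Fcgr4, which binds the IgG2 subclasses, was at 5.34, 5.30, 5.28 and 5.20 in the TIC arrays, against 7.70, 7.09, 6.49 and 6.23 in the CD24- arrays. All 4 TIC values are below the lower quartile of their arrays, so the transcript was dim there and its measured difference can be an underestimate. That difference was -1.60 ± 0.28, or 3.02-fold lower as measured (limma adjusted p = 0.0396), and it is not ranked against those of the other receptors.

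Fcgr2b, the inhibitory receptor, had a larger measured difference than Fcgr1 and Fcgr3 in N251, N260 and the pool. The TIC levels of these genes were low, so this order can follow from which gene was brighter in the CD24- arrays. Fcgr2b was at 5.998, 5.86, 6.23 and 6.19 in the TIC arrays, against 11.28, 10.02, 8.83 and 8.49 in the CD24- arrays. These CD24- values span 2.79, the widest range of the 7 members and a 6.93-fold span between tumors, while the TIC values span 0.37. The difference was -3.59 ± 0.53 or 12.01-fold lower on average (limma adjusted p = 0.0195), from -5.28 in N251 to -2.30 in the pool. Fcgr2b and Fcgr3 are known to be alike in their extracellular parts, and probe sequences were not used here, so a share of signal passing between them was not tested.

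The ITAM adaptors had the largest measured differences of the family. Fcer1g was at 6.47, 6.59, 6.40 and 6.80 in the TIC arrays, against 12.71, 12.06, 10.99 and 10.47 in the CD24- arrays. The lowest CD24- array still exceeded the highest TIC array by a wide margin. It averaged 6.57 ± 0.17 in TIC arrays, against 11.56 ± 1.02 in CD24- arrays (SD, n = 4 each). The difference was -4.99 ± 0.43 or 31.8-fold lower on average (limma adjusted p = 0.00173).

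Tyrobp stood at 6.92, 6.43, 6.30 and 6.88 in the TIC arrays, against 12.73, 12.06, 11.24 and 10.34 in the CD24- arrays. In this gene the TIC arrays of N251 and the pool were somewhat above those of N260 and N283, and the groups were again far apart. The difference was -4.96 ± 0.45 or 31.1-fold lower on average (limma adjusted p = 0.00191), close to that of Fcer1g. Tyrobp differed by -5.81, -5.63, -4.94 and -3.45 in N251, N260, N283 and the pool, and Fcer1g by -6.24, -5.47, -4.59 and -3.67.

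Syk, the kinase recruited by both adaptors, was lower in all 4 tumors and was not called. It was at 6.50, 6.50, 6.30 and 6.29 in the TIC arrays, against 9.76, 8.46, 7.57 and 7.20 in the CD24- arrays. The groups do not overlap, but the N251 difference of -3.26 was far from the -0.91 of the pool. The mean difference was -1.85 ± 0.47 (limma adjusted p = 0.136, or 0.0792 in the replicate block fit). Syk was called in 4 of 22 alternatives, in the random block fit (adjusted p = 0.0296), with array weights (0.00697), and without the CD24- array of N251 (0.0408) or of the pool (0.0288).

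**Figure D2:**
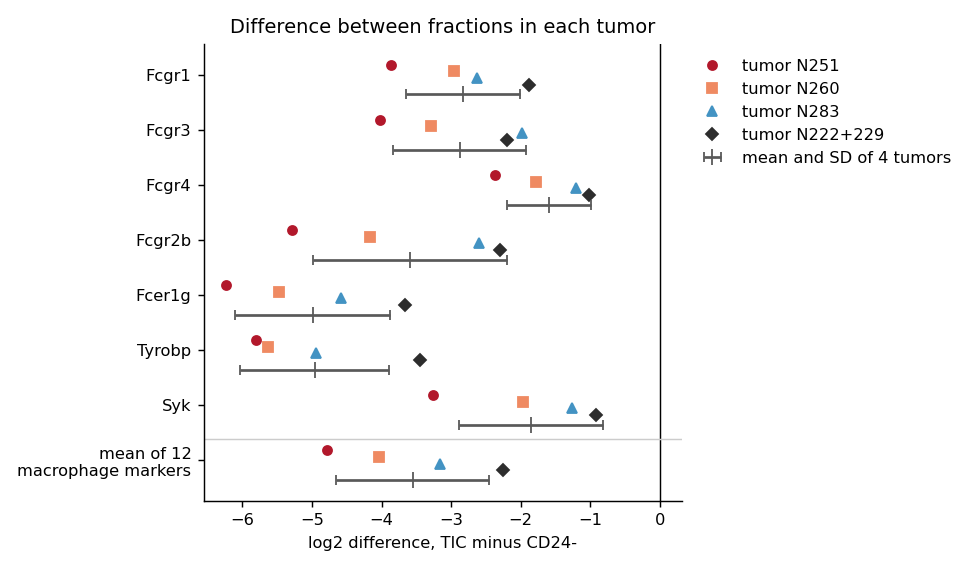
Log2 difference (TIC minus CD24-) of each measured member in each tumor or pool, with the mean and SD of 4 tumors under the points, and the mean of 12 macrophage markers in the last row. All points lie left of 0; Fcer1g and Tyrobp reach furthest, and N251 is the most negative tumor in every row.

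Arrays and tumors were left out only in fits without a block. The calls of the members then depended on the arrays kept, most of all on tumor N260. The sizes of the differences changed little without that tumor. Without both of its arrays the differences were -2.79 for Fcgr1, -2.74 for Fcgr3, -1.53 for Fcgr4, -3.40 for Fcgr2b, -4.83 for Fcer1g, -4.73 for Tyrobp and -1.81 for Syk, close to their values with all arrays. Of the 7 members 0 were then called, with limma adjusted p-values of 0.0783 for Fcer1g, 0.0859 for Tyrobp, 0.330 for Fcgr1 and Fcgr2b, 0.392 for Fcgr3, 0.413 for Fcgr4 and 0.603 for Syk. All 7 were then still lower at an unadjusted p under 0.05, against 693 lower and 798 higher of all 19938 genes. By the adjusted p, 8 of all genes were called lower. Fcer1g and Tyrobp remained called in all 22 other alternatives tried. Without any 1 of the 4 TIC arrays, without the CD24- array of N260 and without both arrays of N283, 2 of 7 members were called, and these were the 2 adaptors. Without both arrays of N251 or of the pool the counts were 4 and 5.

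The spread of the family lay in the CD24- fraction. The CD24- arrays fell in the order N251, N260, N283 and pool for all 7 members, an order seen in 11.0% of all genes. N251 had the most negative difference for all 7 members and the pool the least negative for 6 of 7, Fcgr3 being the exception. Marker lists of several leukocytes moved in the same order. The mean level of 12 macrophage markers ranged from 6.47 to 6.80 in the TIC arrays and stood at 11.46, 10.54, 9.62 and 9.05 in the CD24- arrays of N251, N260, N283 and the pool. In the same CD24- arrays the NK cell markers averaged 9.32, 8.45, 7.80 and 6.67 and the T cell markers 9.52, 8.63, 8.00 and 7.19. The neutrophil and dendritic cell lists fell in this order too, over narrower ranges of 7.05 to 6.12 and 7.56 to 6.77.

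Set against the macrophage mean, the CD24- levels of the members varied much less between tumors. The SD of Fcgr1 over the 4 CD24- arrays was 1.02, and 0.05 once the macrophage mean of each array had been subtracted. The corresponding SDs were 1.02 and 0.11 for Fcer1g, 1.03 and 0.18 for Tyrobp, 1.14 and 0.18 for Syk, 1.27 and 0.25 for Fcgr2b, 1.18 and 0.26 for Fcgr3 and 0.66 and 0.41 for Fcgr4. Fcgr4 followed the macrophage mean least closely, since its values changed less from tumor to tumor than the markers did. Its CD24- levels in N283 and the pool, 6.49 and 6.23, were not far above the lower quartile, so its measured range can be an underestimate. These are descriptions over 4 arrays, and no such subtraction was made for the NK or T cell lists. The T cell mean fell from 9.52 in N251 to 7.19 in the pool, and the macrophage mean from 11.46 to 9.05. With ranges so close, the smaller SDs do not single out macrophages. The part of any cell type's content in the differences was not tested.

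**Figure D3:**
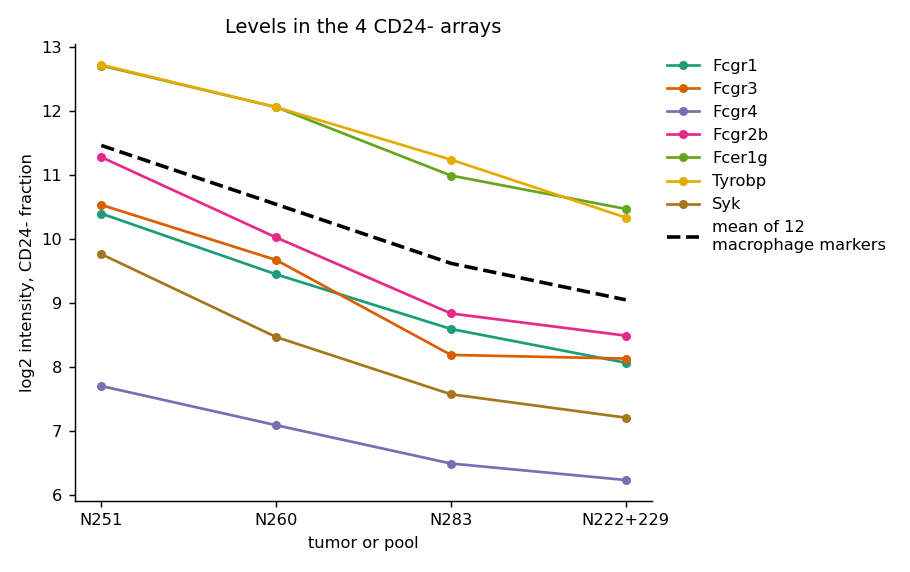
Log2 intensity of each measured member in the 4 CD24- arrays (a line joins the arrays of a gene), with the mean of 12 macrophage markers dashed. Every line falls from N251 to the pool of N222 and N229. The line of Fcgr1 runs parallel to the dashed line, while that of Fcgr4, the lowest of the members, is flatter.

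Markers of the other cell types that carry Fc receptors differed in how far they moved with the family. Of the 12 macrophage markers 8 fell, among them Csf1r, which binds colony-stimulating factor (-5.06 ± 0.49, limma adjusted p = 0.00224), and Adgre1, a surface receptor of mature mouse macrophages (-4.84 ± 0.49, adjusted p = 0.00255). Cd163, a scavenger receptor of some macrophages, was at 5.83 to 6.07 in TIC arrays, against 5.87 to 6.10 in CD24- arrays. The other macrophage markers not called were Mrc1, Mertk and Cd14, with differences of -3.14, -2.18 and -0.88. Of 8 NK cell markers 1 fell (2 with the replicate block, and 6 lower at an unadjusted p under 0.05), and their mean level was 5.57 to 5.73 in the TIC arrays and 6.67 to 9.32 in the CD24- arrays. Over all genes 0.742% were called lower, and at an unadjusted p under 0.05, 1244 of 19938 were lower and 1600 higher. Ncr1, an activating NK receptor that signals through ITAM adaptors, differed by -2.39 ± 0.65 and was not called (adjusted p = 0.158).

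Mast cell and basophil markers did not follow the family. Of 10 such markers 0 were called and 0 passed an unadjusted p under 0.05 in limma, and their mean level was 5.99 to 6.23 in the TIC arrays and 6.04 to 6.18 in the CD24- arrays. Kit was the only bright marker of this list and lifts that mean. It averaged 11.87 in TIC arrays, against 11.42 in CD24- arrays. Cpa3, a mast cell protease, was dim in all arrays, with a mean of 4.79 in TIC arrays, against 4.72 in CD24- arrays. B cell markers were at a mean level of 5.80 to 6.04 in the TIC arrays and 6.05 to 6.51 in the CD24- arrays, with 0 of 7 called (3 lower at an unadjusted p under 0.05, and 1 called with the replicate block). Of 9 neutrophil markers 0 were called (5 lower at an unadjusted p under 0.05, and 1 called with the block), at 5.74 to 6.06 in the TIC arrays and 6.12 to 7.05 in the CD24- arrays. Of 7 T cell markers 1 fell (6 lower at an unadjusted p under 0.05), and their mean level was 6.25 to 6.61 in TIC arrays, against 7.19 to 9.52 in CD24- arrays. Of 9 dendritic cell markers 2 fell (5 lower at an unadjusted p under 0.05), at 6.29 to 6.48 in TIC arrays, against 6.77 to 7.56 in CD24- arrays. Of 10 epithelial, 8 endothelial, 8 fibroblast and 4 platelet markers 0 were called. At an unadjusted p under 0.05, 2 of the epithelial markers were higher, and 2, 3 and 1 of the other lists lower, with 1 fibroblast marker called in the block fit. The shares over all genes were 0.792% called in either direction, and 1244 lower and 1600 higher of 19938 at an unadjusted p under 0.05. The part of any of these cell types in the members' differences was not tested.

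**Figure D4:**
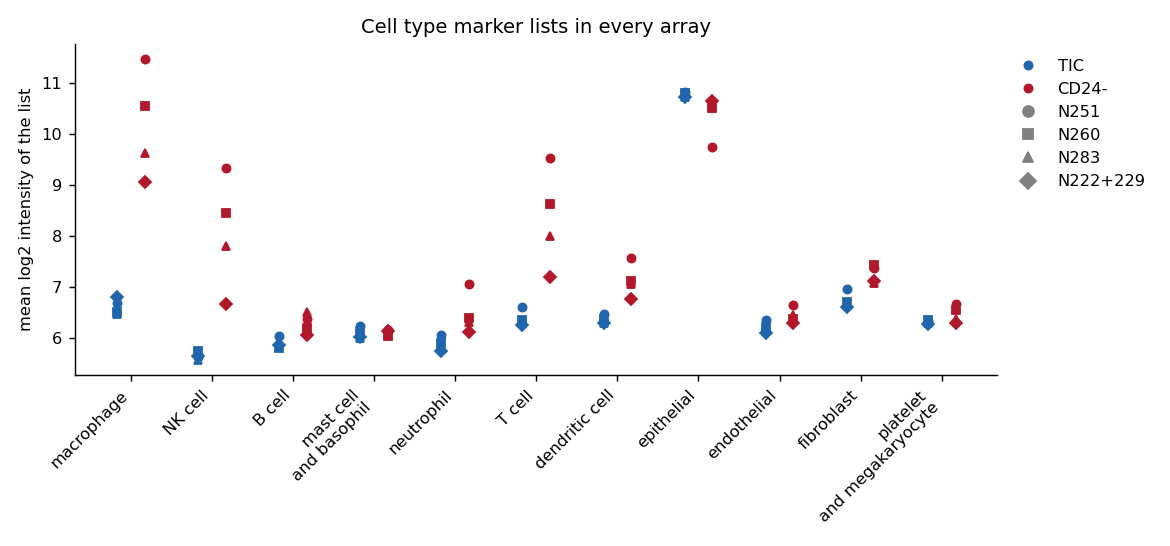
Mean log2 intensity of each cell type marker list in every array, with TIC arrays in blue to the left of CD24- arrays in red and a symbol for each tumor. Macrophage, T cell and NK cell lists are low in the TIC arrays and spread upwards in the CD24- arrays. The mast cell and basophil list, its mean lifted by the bright Kit, stays near 6 in both, and the epithelial list is high in both.

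The ratios of 5 pairs of members are given as a description, since all TIC levels behind them were low. In the TIC arrays the 7 members lay at 5.20 to 6.92, not far above or below the lower quartile of all rows, so the size and sign of a ratio difference there can follow from which gene was brighter in the CD24- arrays. Fcgr3 over Fcgr2b, activating over inhibitory receptor, was 0.71 ± 0.49 higher in the TIC fraction on the log2 scale (SD over 4 tumors), Fcgr4 over Fcgr2b 1.99 ± 0.79 and Fcgr1 over Fcgr2b 0.75 ± 0.67. Syk over Fcer1g was 3.14 ± 0.34 higher, with a mean log2 ratio of -0.17 in TIC arrays, against -3.31 in CD24- arrays, so nearly all of it is the gap in the CD24- arrays.

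An exact two-sided permutation test of 4 against 4 arrays, adjusted over the 5 pairs, gave its smallest p of 0.0286 (adjusted 0.0476) for Fcgr3 and Fcgr4 over Fcgr2b and for Syk over Fcer1g, and 0.0571 (adjusted 0.0714) for Fcgr1 over Fcgr2b. These p-values do not separate a change in balance from the low TIC levels. Fcer1g over Tyrobp differed by -0.03 ± 0.36 between the fractions (exact permutation p = 0.80, adjusted 0.80), from -0.43 in N251 to 0.35 in N283. When signs were flipped within tumors instead, which treats the tumor as a replicate block, the smallest p that 4 pairs allow is 0.125, and none of the 5 ratios could pass.

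Around the family, genes of the same pathway were lower to very different degrees. Of 89 measured genes in 5 lists 15 fell and 0 rose, against 0.742% and 0.0502% of all genes. At an unadjusted p under 0.05, 52 were lower and 2 higher, against 1244 and 1600 of all 19938 genes. Of the 89, 47 had all TIC arrays below all CD24- arrays, against 4.68% of all genes. In the signalling relay around Syk, of 24 measured kinases, scaffolds and effectors 2 fell and 0 rose, with a median difference of -1.07. Lcp2, the scaffold SLP-76 that Syk phosphorylates, differed by -3.74 ± 0.55 (limma adjusted p = 0.0200), and Vav1, an exchange factor that activates Rac in blood cells, by -3.61 ± 0.57 (adjusted p = 0.0259). Lcp2 was at 6.77, 6.60, 6.58 and 6.60 in the TIC arrays, against 12.05, 10.84, 9.52 and 9.10 in the CD24- arrays of N251, N260, N283 and the pool, the tumor order of the receptors.

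Receptors that use the same adaptors fell with them in part. Of 17 measured receptors known to signal through Fcer1g or Tyrobp 4 fell and 0 rose, with a median difference of -0.88, and 2 fell with the replicate block. Of the 17, 1 is also among the NK cell and 1 among the dendritic cell markers. Trem2, a lipid-sensing receptor of tissue macrophages that pairs with Tyrobp, was at 7.83, 7.24, 7.30 and 7.06 in the TIC arrays, against 12.04, 10.97, 9.87 and 9.29 in the CD24- arrays. Its groups do not overlap and it differed by -3.19 ± 0.52 (limma adjusted p = 0.0307). The C-type lectins Clec4n, which is Dectin-2 and pairs with Fcer1g, and Clec5a, which pairs with Tyrobp, differed by -2.84 and -2.72 (adjusted p = 0.0490 and 0.0235), and neither was called with the replicate block (0.0554 and 0.0538). Siglech, a receptor of plasmacytoid dendritic cells that pairs with Tyrobp, differed by -1.59 (adjusted p = 0.0387).

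Inhibitory receptors had the largest share of calls among the 5 lists. Of 20 measured ITIM receptors and recruited phosphatases 7 fell and 0 rose, with a median difference of -1.53. Lilrb4a, an inhibitory receptor of myeloid cells, was at 5.53, 5.84, 5.81 and 5.99 in the TIC arrays, against 12.33, 11.54, 10.14 and 10.16 in the CD24- arrays. It was 38.1-fold lower on average (-5.25 ± 0.45, limma adjusted p = 0.00173), more than any measured IgG receptor. Cd33, a sialic acid-binding receptor, differed by -4.44, Pilra by -4.18 and Lair1, which binds collagen, by -3.55 (adjusted p = 0.00334, 0.00242 and 0.0155). Inpp5d, the lipid phosphatase that Fcgr2b recruits, was named after its value was seen and differed by -3.48 ± 0.57 (adjusted p = 0.0307).

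Fc receptors for other antibody classes and the ITAM chains of lymphocytes changed in small part. Of 19 measured genes 2 fell and 0 rose, with a median difference of -0.29, and 6 were lower and 1 higher at an unadjusted p under 0.05. The list shares 3 genes with the T cell markers, 2 with the B cell and 2 with the mast cell markers. Those that fell were Cd3g, an ITAM chain of the T cell receptor (-5.62 ± 0.54, limma adjusted p = 0.00224), and Fcrls, an Fc receptor-like gene expressed by mouse microglia and macrophages (-4.41 ± 0.66, adjusted p = 0.0210). Fcrls was at 5.54, 5.53, 5.79 and 5.63 in the TIC arrays, against 11.98, 10.69, 8.999 and 8.49 in the CD24- arrays, and so followed the tumor order of the IgG receptors.

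The partner of Fcgrt was even across the fractions. Fcgrt pairs with B2m, the small chain it shares with MHC class I molecules, and B2m was at 13.55, 13.44, 13.52 and 13.41 in the TIC arrays, against 13.63, 13.58, 13.48 and 13.46 in the CD24- arrays. The groups overlap and the difference was -0.06 ± 0.09 (limma adjusted p = 0.833). Of 9 measured genes of this list, B2m included, 0 were called (1 lower and 1 higher at an unadjusted p under 0.05), with a median difference of -0.06. Cd1d1, a lipid-presenting class I-like chain, had the smallest p of them and differed by 0.81 ± 0.18 (adjusted p = 0.0950), and it was called only with the tumor as a random block, with array weights and without the CD24- array of N283 among the alternatives tried.

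**Figure D5:**
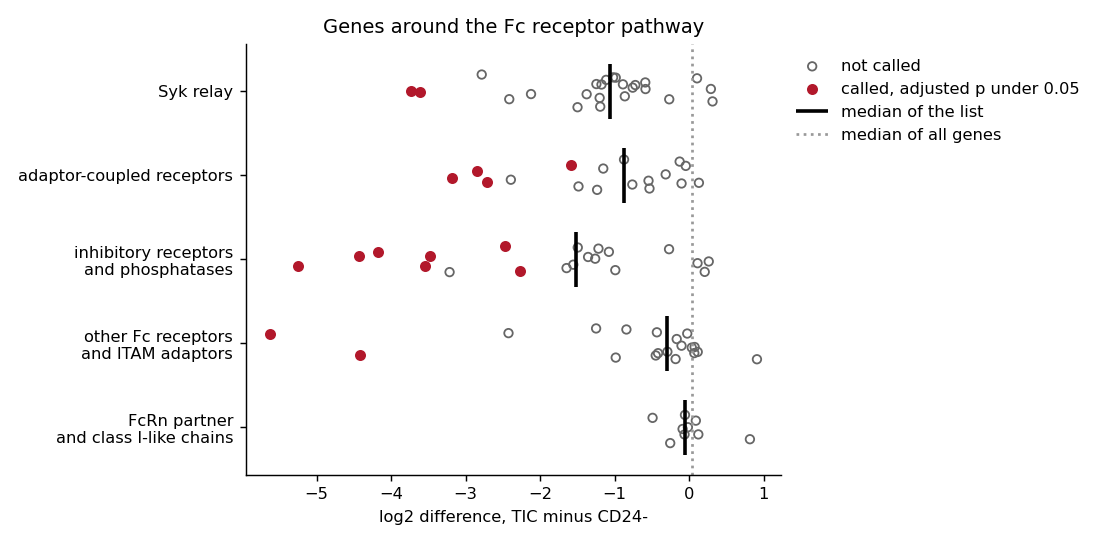
Log2 difference (TIC minus CD24-) of every measured gene in the 5 pathway lists; filled points were called by limma at an adjusted p under 0.05, black bars are list medians and the dotted line is the median of all genes. Called genes lie to the left in 4 lists, and the genes of the Fcgrt partner list cluster around 0.

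The genes whose differences in the 4 tumors lay closest to those of each member were a mixed set. Csf1r, Itgam and Adgre1 are also in the macrophage list and Siglech in the dendritic cell list, while many others are in none of the lists. The genes were picked by the differences themselves, so they do not identify a cell type. Closeness was the root mean square distance between the 4 differences of 2 genes, in log2 units, and it takes in only 4 values. Of the 19938 genes, those with Gm, LOC or Rik symbols were kept out of the search. A gene with such a symbol can therefore lie closer than those named here. For Fcer1g the closest were C1qc, a chain of complement C1q (0.11), Csf1r (0.14) and Pld4 (0.18). For Tyrobp they were P2ry13, a purinergic receptor (0.25), Fcer1g (0.31) and Adgre1 (0.33).

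Among the receptors, Fcgr1 lay closest to Aim2, a sensor of cytosolic DNA (0.17), to Itgam, the integrin chain CD11b (0.17), and to the phosphatase gene Ptpn22 (0.22). Fcgr2b lay closest to AI504432 (0.17), Adap2 (0.18) and Lcp2 (0.20). Fcgr3 had Themis2 (0.16), Ptpn22 (0.24) and Tagap (0.26) as its closest genes. For Fcgr4 they were Siglech (0.11), the costimulatory ligand Cd80 (0.13) and the lipoxygenase gene Alox5 (0.16). Syk lay closest to Pla2g15, Epb41l2 and Frmd4b (0.12 to 0.13), none of which was called. Themis2, Cd80 and Alox5 were not called either (limma adjusted p = 0.0659, 0.0573 and 0.0979).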

How the data were processed

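RNA of 8 samples was hybridised to Affymetrix Mouse Gene 1.0 ST arrays. The deposited values are log2 intensities per transcript cluster, which the authors normalized (RMA and Partek, per the submitters' processing notes; no version, setting or build is stated there). Values ran from 1.76 to 14.6, and no 2 arrays were duplicates (highest correlation 0.991).

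Of 35556 rows, 21789 carried exactly 1 gene symbol, 1621 several and 12146 none. Gene identifiers matched a RefSeq table (GRCm38.p6) for 21698 rows and renamed 0. The brightest cluster stood for a gene, leaving 19938 genes. TIC and CD24- arrays were compared with limma 3.58.1 in R 4.3.3 (lmFit, eBayes), keeping dim genes and setting no block, and p-values were adjusted over all genes by Benjamini-Hochberg at 0.05. The tumor as a replicate block was an alternative. Both fractions came from the same tumors, and paired arrays deviated together from their groups, with correlations over genes of 0.32, 0.43, 0.30 and 0.56 (N251, N260, N283, pool). The block changed no call of a member. Other alternatives were a random block, filters, weights, scalings and leaving out arrays or tumors.

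The members, lists and tests were chosen with earlier results of these data known. Besides the members, B2m and 5 cell markers, the text names in each list the 4 largest called differences or the smallest p, the nearest measured gene on either side of each member, and the 3 genes closest to a member that differed by more than 1. Inpp5d, Cd163, Mrc1, Mertk, Cd14 and Kit are named outside this rule. On simulated data (10 draws, 200 of 19938 genes changed), log2 differences of 4, 2 and 1 were called in 99.4%, 95.0% and 75.4% of cases, with 0.92% false calls. The simulation gave both fractions the same spread and drew genes independently of one another. The members spread more in CD24- than in TIC arrays and moved together between tumors, so these rates do not carry over to them.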

Additional observations from a re-analysis of the deposited data

Results flagged for a closer look

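A single array lay far from the other 3 in 4 of the 146 groups of arrays examined, and chance gives about 7. In the TIC fraction Lcp2 was at 6.772 in N251 (others 6.579 to 6.605) and Alox5 at 6.798 in N251 (others 6.289 to 6.369). The Fc receptor-like gene Fcrla was at 5.287 in the TIC array of the pool (others 6.0 to 6.021), and Auh, the gene beside Syk, at 9.271 in the TIC array of the pool (others 8.969 to 9.019). No member, no ratio of members and no list mean was among them.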

How the results depend on the processing

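All 7 members were lower in the TIC fraction under every alternative that gave a value, the differences of Fcer1g ranging from -5.43 to -4.58 and those of Fcgr4 from -1.81 to -1.32. Against 148 lower and 10 higher genes, 6 lower members and 15 lower pathway genes, the replicate block gave 172 higher genes. A random block gave 606 lower and 430 higher genes, with 39 lower and 1 higher pathway genes. Array weights gave 778 and 191, with 49 and 1. Genes at or above the median level left 5 higher genes, median centring 19 and cyclic loess 6. All rows tested gave 97 lower and 1 higher, with 9 pathway genes. At an adjusted p under 0.01 there were 58 lower and 0 higher genes, 2 lower members and 4 pathway genes.

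Single arrays or tumors were left out in fits without a block. There were then 8 to 583 lower and 0 to 46 higher genes. Lower members numbered 0 to 7, lower pathway genes 0 to 38 and higher pathway genes 0 to 1. The lowest lower count, 8, was without tumor N260, against 118, 42 and 225 without N251, N283 and the pool, and the cause was not tested. The replicate block changed no call of a member. The ratios of Fcgr3 and Fcgr4 over Fcgr2b and of Syk over Fcer1g missed 0.05 without any single CD24- array. With sign flips within tumors, and without a tumor, they could not reach it, since the smallest p is 0.125 and 0.1.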

Other observations

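No gene beside the members on the chromosomes differed by as much as the members did. Fcgr2b, Fcgr3, Fcgr4 and Fcer1g all lie on chromosome 1, Fcgr1 on chromosome 3, Tyrobp on chromosome 7 and Syk on chromosome 13. The nearest measured genes on either side that are not members number 11, with differences from -0.45 to 0.33. Of these 0 were called in either direction, against 0.792% of all genes. At an unadjusted p under 0.05 (limma without a block) 0 of the 11 passed, while 1244 of all 19938 genes were lower and 1600 higher. With the tumor as a replicate block 0 of the 11 were called, against 1.09% of all genes lower and 0.863% higher. Among so few genes, 0 calls is near the share over all genes. Fcrla, an Fc receptor-like gene next to Fcgr2b, was lower in all 4 tumors, with differences of -0.47, -0.37, -0.29 and -0.60 in N251, N260, N283 and the pool (adjusted p = 0.361, or 0.067 with the replicate block). Apoa2 and Adamts4, on either side of Fcer1g, differed by -0.11 and 0.01. Hcst, which encodes the adaptor DAP10 and lies next to Tyrobp, was also lower in all 4 tumors, with differences of -1.18, -0.27, -0.28 and -0.07 (adjusted p = 0.413, or 0.237 with the replicate block), whereas Tyrobp itself differed by -4.96.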
